A study of Mus musculus with 24 samples.

Results

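The 79 genes described here carry the symbols of the cytoplasmic ribosomal proteins, 46 of the large subunit (Rpl and Rplp symbols) and 33 of the small subunit (Rps symbols and Rpsa). They were taken by symbol alone from a table of 55938 genes, and symbols that mark pseudogene copies with "-ps" were left out. The annotation calls 77 of them protein coding and 2, Rps3a2 and Rps3a3, processed pseudogenes. They lie on 19 chromosomes, with 14 on chromosome 7 and 4 on the X chromosome.

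RNA was measured in 12 mouse gliomas raised by transfer of PDGFB, a growth factor, into the forebrain ventricles of embryos. Each tumour gave a library of fluorescent glioma cells and a library of surrounding cells without fluorescence, separated by flow sorting from the dissected tissue. Per the labels, 4 tumours were taken without symptoms at 33 to 34 days after transduction (codes 3228A, 3228B, 3228D and 3229B). By the letters that end the submitters' names, 4 more were early symptomatic at 35 to 50 days (3108C, 3108D, 3109D and 3145A), and 4 were late symptomatic at 100 to 175 days (3054A, 3054B, 3054C and 3057E). All 24 libraries thus come from PDGFB tumours and none from a brain without one. Mouse strain, genotype and the promoter of the vector were not given in the sources used here. The glioma cells of 3057E carry a red label in the submitters' names and those of the other tumours a green one, and 3 of the 4 late codes share a prefix. Nothing states that codes of a prefix came from separate litters, so the tests measure the spread between these tumours, whatever its source.

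Each ribosome holds a single copy of most of these proteins, so their production is tuned together. In mammals most of the messages begin with a C at the start of a run of pyrimidines, the terminal oligopyrimidine (TOP) tract, through which mTORC1, a kinase that senses growth signals and nutrients, sets how well they are translated. Myc and the nucleolar machinery drive the making of ribosomes in dividing cells, and the level of a ribosomal protein message need not follow its translation.

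The start sites of the messages are shown because they hold the pyrimidine tract by which these messages are known. In RefSeq promoters of the build GRCm38.p6, 57 of the 79 genes were matched by symbol. Each line gives 15 bases before the annotated start and 15 from it onward on the gene's strand, and capitals mark the pyrimidine tract, defined as a C followed by at least 5 letters that are C or T and beginning within 15 bases of the start. The first 3 genes were lower in glioma cells, Rps6, Rplp2 and Rpl15 show other tracts, and Rpl10, also lower in glioma cells, and Rpl24 hold none in this window.
Rps9 (chr7:3704026-3704055, plus strand): accgccttgtCTCTCTTTgtctcgggcctg
Rpl12 (chr2:32961697-32961726, plus strand): ggcggagcaggatccgtCTTTTCggctttc
Rpl35a (chr16:33056467-33056496, plus strand): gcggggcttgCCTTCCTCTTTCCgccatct
Rps6 (chr4:86857353-86857382, minus strand): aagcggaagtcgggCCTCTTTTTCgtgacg
Rplp2 (chr7:141447636-141447665, plus strand): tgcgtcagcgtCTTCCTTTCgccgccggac
Rpl15 (chr14:18270972-18271001, minus strand): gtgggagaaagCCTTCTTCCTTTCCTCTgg
Rpl10 (chrX:74270801-74270830, plus strand): gttgttacagtggaagataggccgcctata
Rpl24 (chr16:55966260-55966289, plus strand): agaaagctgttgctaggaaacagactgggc

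Such a tract was found in 35 of the 57 genes (61.4%), against 29.0% of all 27025 genes with a promoter in the table; a gene counts once if any of its promoters holds the match. The letters CTTCCG on either strand, the core that ETS factors read, were in the 300 bases around the start of 40 genes (70.2%), against 18.8% of all genes. CTTTCC was in 50.9% against 29.3%, TATAAA in 10.5% against 15.7% and CACGTG in 10.5% against 8.09%, all on either strand. CTTTCC can overlap the tract itself. These matches describe letters in a window and not the use of a site. The median log2 fold change of late over asymptomatic glioma cells was 0.71 in the 35 genes with the tract and 0.68 in the 22 without. The tract was sought at annotated starts only, so the 22 may include TOP messages.

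Libraries of 5 tumours stood apart or went against their codes. Tumour 3108D had 1591 CPM (counts scaled to library size) of Xist, transcribed from the inactive X chromosome, in glioma cells and 2.08 CPM in surrounding cells. Tumour 3109D showed the opposite, with 1.89 CPM of Xist in glioma cells and 1079 CPM in surrounding cells. Since these tumours are both early symptomatic, their stage is not in doubt, but which libraries form a pair is. In 3054C, Ddx3y of the Y chromosome was at 2.96 CPM in glioma cells and 93.2 CPM in surrounding cells, with Xist under 2 CPM in both. The surrounding library of 3229B had 30.3% of its counts on mitochondrial genes and 400.4 CPM of the nuclear RNA Malat1. The other 3 asymptomatic surrounding libraries had 10.9 to 13.4% on mitochondrial genes and Malat1 levels between 2263 and 2769 CPM. The summed level of 7 microglia markers was 1471 CPM in the glioma library of 3057E and 49.7 to 475.7 CPM in the other 11 glioma libraries. In the surrounding library of 3057E this sum was 1705 CPM, the lowest of the 12 surrounding libraries. The part of these levels in the results that turn on 3057E was not tested. The summed 6 OPC markers (oligodendrocyte precursor cells) were at 5989 to 9292 CPM in glioma libraries and 392.2 to 6944 CPM in surrounding libraries.

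The 79 genes took between 1.51% and 4.12% of all counts in a library, and library totals ran from 9075510 to 15471149. In asymptomatic tumours the share was 2.05% ± 0.193 in glioma cells and 2.35% ± 0.435 in surrounding cells (SD, n = 4 each). In early symptomatic tumours it was 2.13% ± 0.234 in glioma cells and 2.30% ± 0.537 in surrounding cells. In late symptomatic tumours it was 3.01% ± 1.09 in glioma cells and 2.93% ± 0.881 in surrounding cells, so the late groups had both the highest means and the widest spread. The late glioma libraries of 3054A, 3054B and 3054C stood at 3.36%, 3.09% and 4.08%, above every glioma library of the other stages, while 3057E stood at 1.51%, below every one of them. The share was lower in the glioma library than in its surrounding library in 8 of 12 codes. Here and below, fewer cells of a type and less RNA per cell cannot be told apart in sorted bulk RNA.

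**Figure D1:**
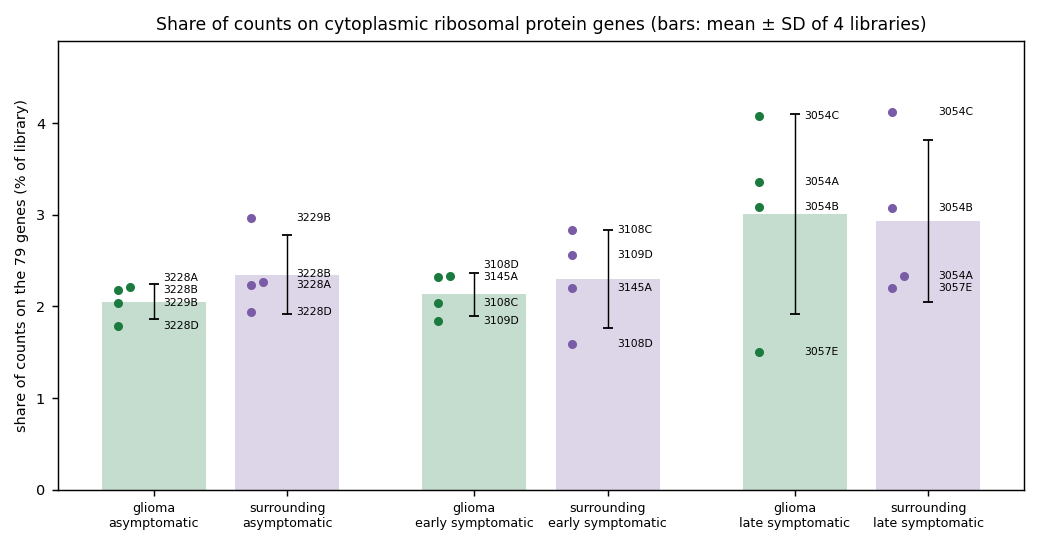
Share of each library's counts on the 79 ribosomal protein genes (percent, vertical axis) by sorted population and stage; points are libraries with their tumour codes, bars the mean and error bars the SD of 4 libraries. Among late glioma libraries 3 lie at 3.09 to 4.08% and 3057E at 1.51%, and the surrounding library of 3229B lies at 2.96%, above the others of its group.

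The genes moved as a unit over the libraries. The first principal component of their log2(CPM + 0.5) values held 91.1% of the variance. Each gene's correlation with the mean of the other 78 over the 24 libraries was 0.74 to 0.99 (median 0.97), and it was above 0.9 for 70 genes; the libraries share depth and scaling, so this is a description. The counts of the small subunit were 0.65 to 0.71 times those of the large subunit in glioma libraries and 0.66 to 0.74 times in surrounding libraries. Single genes had mean levels of 6.85 CPM (Rps3a3) to 804.2 CPM (Rpl4), with a median of 291 CPM. All 79 passed the filter on low counts in every fit, and the coding members had at least 460 counts in any library. Of the glioma libraries, that of 3054C was the highest for 62 genes and that of 3057E the lowest for 75. Of the surrounding libraries, that of 3054C was the highest for 77 genes and that of 3108D the lowest for 74.

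**Figure D2:**
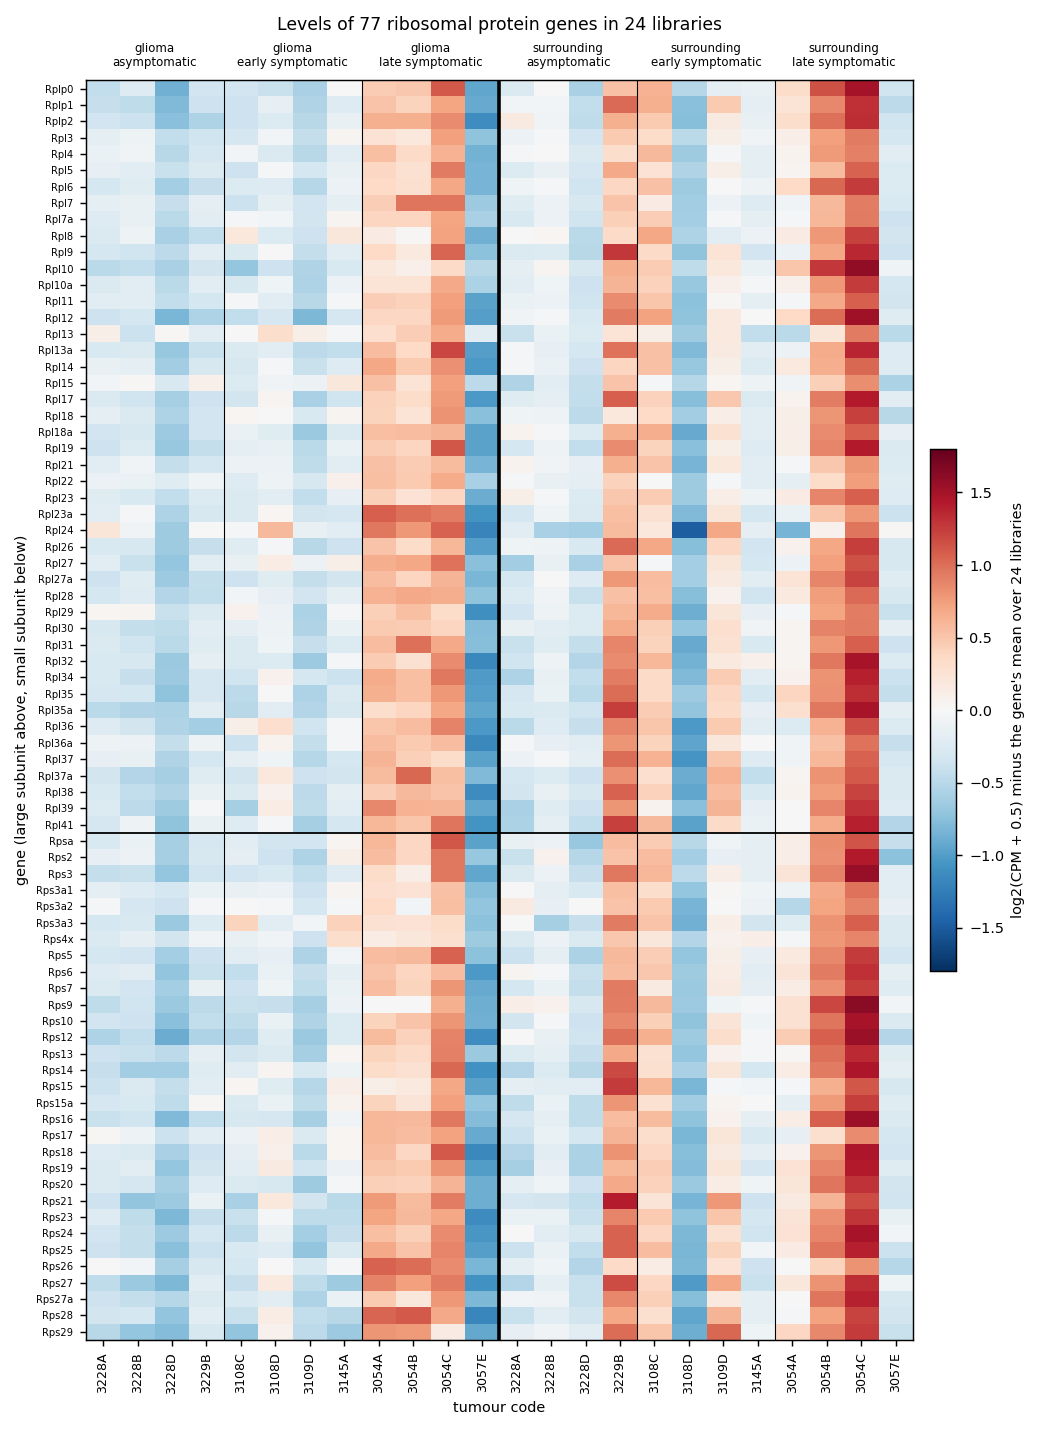
Level of 77 of the genes (rows, large subunit above small subunit) in each of 24 libraries (columns, glioma left and surrounding right, by stage and tumour code), as log2(CPM + 0.5) minus the gene's mean; red is above and blue below that mean. Whole columns share a colour: the glioma library of 3057E is blue for nearly all genes, and the surrounding library of 3108D is mostly blue. Columns that are mostly red include the glioma libraries of 3054A, 3054B and 3054C and the surrounding libraries of 3054B, 3054C and 3229B.

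Glioma and surrounding cells were compared first. In glioma cells 7 of the 79 genes were lower and 0 were higher (edgeR's quasi-likelihood test, adjusted p under 0.05 over all genes). Of all 18810 genes tested, 24.2% were lower and 22.0% higher. In this fit, which does not pair the libraries of a tumour, the 8.86% of members called lower stand below the share among all genes. The median log2 fold change of the 79 was -0.31, against 0.06 for all genes, and 73 of the 79 were negative. At an unadjusted p under 0.05 there were 16 of the 79, against 52.8% of all genes. Whether the members' share called lower stood below that of all genes depended on the fit. With the tumour code, as labelled, as a block it was 22.8%, against 25.8% of all genes. With 3108D and 3109D exchanged in that block it was 35.4%, above the 26.5% of all genes.

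Rps9, a small-subunit protein of the decoding side, was at 189.5 to 541 CPM in the 12 glioma libraries with a median of 262 CPM, against 221 to 1072 CPM and a median of 373 CPM in surrounding libraries. It was lower in the glioma library of 11 of 12 codes, though the ranges overlap. Its log2 fold change was -0.68 ± 0.20 (SE, adjusted p = 0.00836), and it stayed under 0.05 in all 21 alternative fits, at 0.00099 to 0.042. Rpl10, which joins the large subunit late and lies near its catalytic centre, was at 184 to 381 CPM in glioma cells with a median of 225 CPM, against 216 to 901 CPM and a median of 326 CPM in surrounding cells. It too was lower in glioma cells of 11 codes, at -0.66 ± 0.17 (adjusted p = 0.00294), and under 0.05 in 20 of 21 alternatives, all but the scaling to the summed members described below. Rpl12, at the base of the stalk that recruits elongation factors, was at 132 to 445 CPM in glioma cells (median 206 CPM) and 158 to 759 CPM in surrounding cells (median 278 CPM). It fell by 0.62 ± 0.22 on the log2 scale in glioma cells (adjusted p = 0.0222).

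The small-subunit genes Rps12 (-0.62 ± 0.23, adjusted p = 0.0338) and Rps29 (-0.61 ± 0.24, 0.0387) were also lower in edgeR's test. So was Rpl35a of the large subunit (-0.56 ± 0.22, adjusted p = 0.0439). These calls are less firm than the first pair. Leaving out tumour 3108C or 3109D in turn ended the calls of Rpl12 and these 3 genes, and leaving out 3054B ended all 3 of these, with adjusted p of up to 0.121. Rpl35a and Rps29 were also lost without 3054C, and Rps12, Rps29 and Rpl35a without 3229B. With limma voom and with no count filter Rpl35a and Rps29 were lost too. They were called in 12 and 13 of 21 alternatives.

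The number of genes called lower depended on how the tumours entered the fit. With the tumour code, as labelled, as a block it was 18, against 25.8% of all genes. Here Rps3, Rpl6, Rplp0, Rplp1, Rpl23, Rps10, Rplp2, Rpl27a, Rps20, Rps6 and Rps24 joined. Without 3108D and 3109D it was 5, among them Rpl10, Rps9, Rpl12 and Rps29, against 22.3% of all genes. Without 3057E it was 24, against 27.4%. Leaving out other single tumours gave 2 to 10, a range given here without the shares of all genes in those fits. As shares of the 79 members these counts are 22.8% with the block, 6.33% without 3108D and 3109D and 30.4% without 3057E. Of these shares, only that without 3057E was above the share of all genes in its fit. Microglia markers moved with this comparison, all 7 of 7 lower in glioma cells, with summed levels of 49.7 to 1471 CPM in glioma cells and 1705 to 11130 CPM in surrounding cells. Markers of mature oligodendrocytes (6 of 6), endothelial cells (4 of 4), T cells (4 of 4), erythrocytes (4 of 4) and astrocytes (3 of 5) were lower too, those of OPCs higher (5 of 6), and those of neurons not called (0 of 4). Genes induced by dissociation were lower for 4 of 5, with summed levels of 583 to 1840 CPM in glioma cells and 777 to 5478 CPM in surrounding cells. The part of these in the result was not tested.

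**Figure D3:**
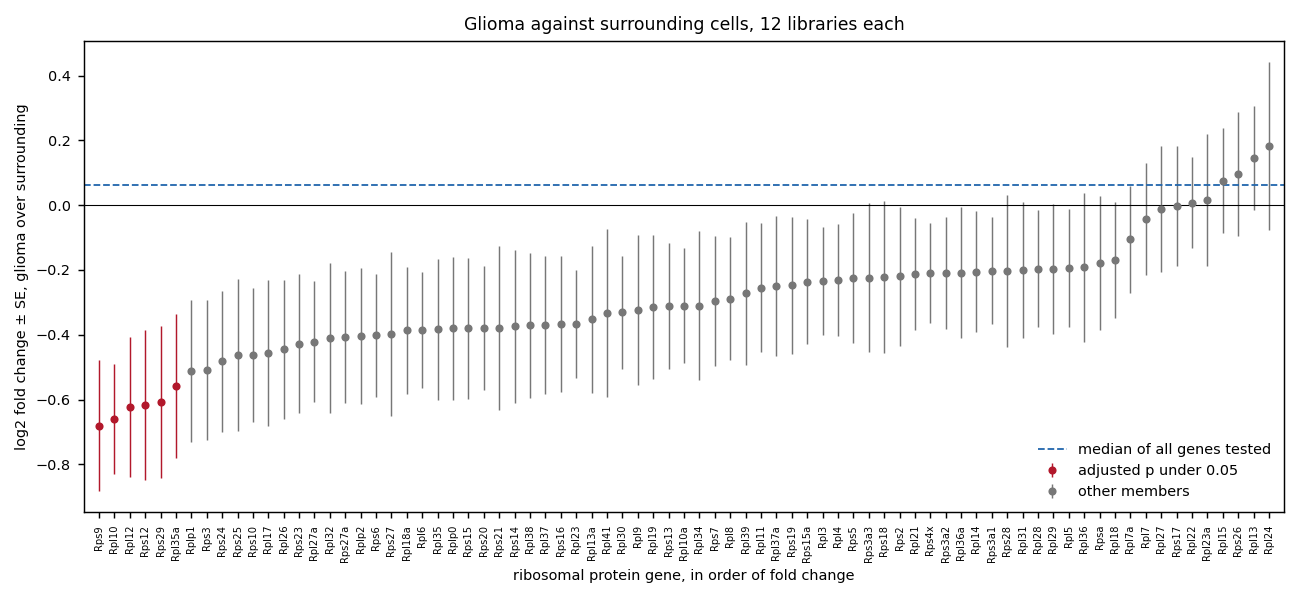
Log2 fold change of glioma over surrounding cells with its standard error (vertical axis) for 77 of the genes in order of fold change (horizontal axis), from 12 libraries of each population; red points have an adjusted p under 0.05. Most points lie below 0 and below the dashed median of all genes at 0.06, and the 6 red points run from -0.68 (Rps9) to -0.56 (Rpl35a).

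The other members named for their roles had smaller log2 fold changes. Of the stalk proteins, Rplp1 had a log2 fold change of -0.51 ± 0.22 (adjusted p = 0.06), Rplp2 of -0.40 ± 0.21 (0.121) and Rplp0 of -0.38 ± 0.22 (0.167) in edgeR's test. Rps6, the substrate of the S6 kinases below mTORC1, was at -0.40 ± 0.19 (adjusted p = 0.0892), and Rps27a, made as a fusion with ubiquitin, at -0.41 ± 0.20 (0.110). Rpl5 and Rpl11, which with the 5S RNA can bind the p53 ligase Mdm2, were at -0.19 ± 0.18 (0.401) and -0.25 ± 0.20 (0.308). Rpl39 and Rpl41, the smallest proteins of the large subunit, were at -0.27 ± 0.22 (0.331) and -0.33 ± 0.26 (0.307). Rpl3, near the catalytic centre, was at -0.23 ± 0.17 (0.262), and the X-linked Rps4x at -0.21 ± 0.15 (0.278). Rpsa, also known as a laminin receptor, was at -0.18 ± 0.21 (0.504), Rps3a1 at -0.20 ± 0.17 (0.331) and Rpl22 at 0.01 ± 0.14 (0.972). None of these passed the threshold in this fit. With the tumour code as a block, 4 of them did: Rplp0 at -0.35 ± 0.13, Rplp1 at -0.44 ± 0.16, Rplp2 at -0.38 ± 0.14 and Rps6 at -0.38 ± 0.15 (edgeR, adjusted p = 0.0313, 0.0343, 0.0377 and 0.0412).

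Within single stages the same contrast called few genes. In asymptomatic tumours 0 of 79 were called, against 13.8% of all genes in either direction, and 0 by DESeq2 or limma voom. An unadjusted p under 0.05 was found for 1 member, against 26.7% of all genes. Without 3057E 1 was called lower, Rps12, against 15.1% of all genes. With all tumours Rps9 had the smallest p. It was at 254, 273, 218 and 252 CPM in glioma cells, against 380, 366, 286 and 661 CPM in surrounding cells of the same 4 codes, which do not overlap, and its log2 fold change was -0.77 ± 0.35 (edgeR, adjusted p = 0.161). Rps12 came next at -0.83 ± 0.40 (adjusted p = 0.192). In early symptomatic tumours 0 were called, against 13.5% of all genes, and 0 by DESeq2 or limma voom. An unadjusted p under 0.05 was found for 0 members, against 24.4% of all genes. In those tumours edgeR gave Rpl10 -0.52 ± 0.29 (adjusted p = 0.292) and Rps29 -0.71 ± 0.41 (0.300). In late tumours 1 gene was called lower, against 19.9% of all genes called lower. This was Rpl10, at 341, 317, 381 and 211 CPM in glioma cells of 3054A, 3054B, 3054C and 3057E, against 423, 720, 901 and 282 CPM in surrounding cells, lower in all 4 pairs. Its log2 fold change was -0.90 ± 0.29 (edgeR, adjusted p = 0.0217), and the call was lost without 3054B or 3054C. Rps9 was at -0.88 ± 0.35 (adjusted p = 0.0536) and was called lower by DESeq2 and limma voom. With the tumour code as a block 2 were lower, Rps9 and Rpl10, against 21.9% of all genes, with Rps9 at -0.82 ± 0.23 (edgeR, adjusted p = 0.0127).

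Because the genes share so much of their variation, each was also set against the sum of all 79 in the same library, a scaling chosen after the data were seen. The median of all genes in glioma over surrounding cells was 0.29 on this scale and 0.06 on the usual one. On this scale 2 members were higher in glioma cells, against 15.1% of all genes, and 1 was lower, against 16.2%. Rpl13 was higher at 0.46 ± 0.16 (edgeR, adjusted p = 0.029) and Rpl15 at 0.36 ± 0.14 (0.048), both of the large subunit. Rps9 was lower at -0.36 ± 0.13 (adjusted p = 0.042). Just outside the threshold were Rpl12 at -0.32 ± 0.13 (0.0575), Rps26, near the exit of the message channel, at 0.35 ± 0.14 (0.0576), Rpl24, which bridges the subunits, at 0.45 ± 0.18 (0.0638), and Rpl10 at -0.33 ± 0.14 (0.0706). Relative levels of single libraries, here and below, were taken in another way, as the log2 level minus the mean log2 level of the 79 in that library. On that measure Rps26 was relatively higher in the glioma library of 12 of 12 codes as labelled, and Rpl12 in 0 of 12.

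The genes that departed most from the shared level over the 24 libraries were Rpl24, Rpl13, Rps29 and Rpl10, with SDs of the relative log2 level of 0.42, 0.35, 0.31 and 0.27. Among those that departed least were Rps7, Rps20 and Rpl11, at 0.089 to 0.10, and 60 of 79 were under 0.2. Rpl24 was at 289, 256, 312 and 65.1 CPM in glioma cells of 3054A, 3054B, 3054C and 3057E, against 83.3, 158, 292 and 151 CPM in the surrounding cells. Relative to the other members it was high in 3 of these glioma libraries and low in that of 3057E. Rpl13 was at 420, 466, 545 and 298 CPM in late glioma cells, against 244, 399, 658 and 244 CPM in late surrounding cells. Its relative level was highest in the glioma library of 3057E, at 0.69, where most members were at their lowest.

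**Figure D4:**
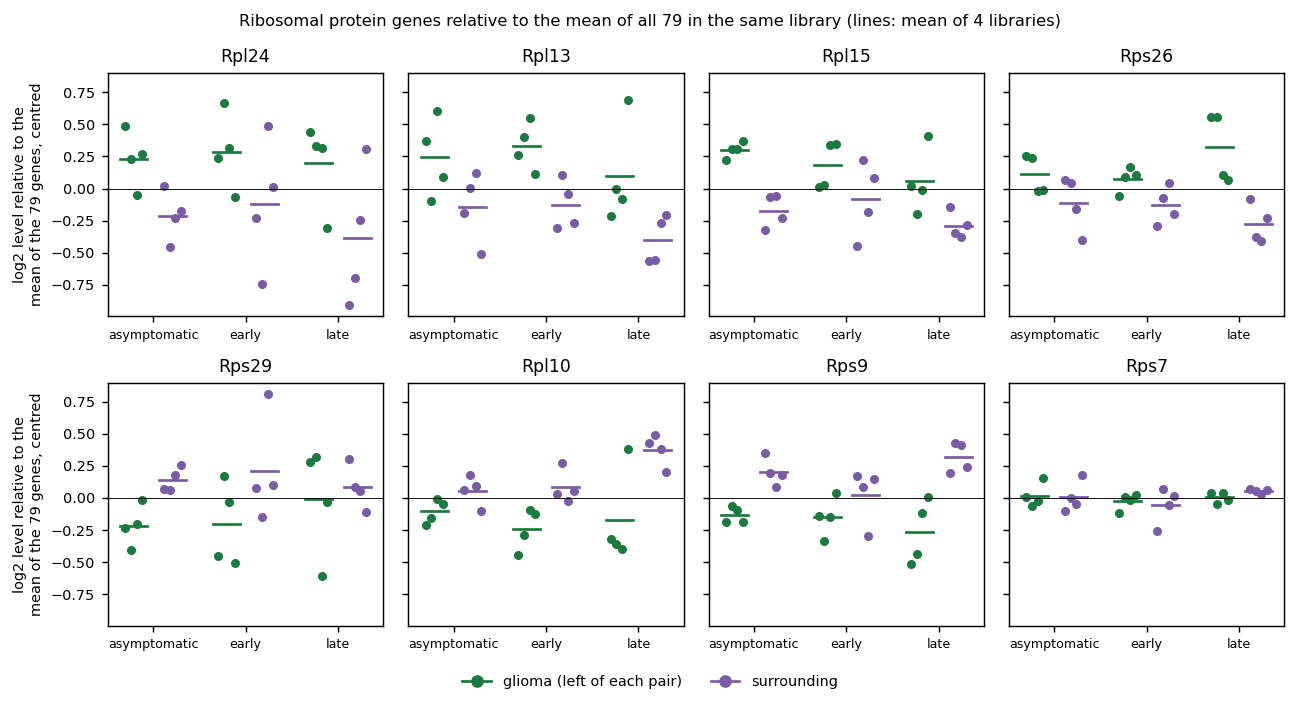
Log2 level relative to the mean of the 79 genes in the same library, centred on each gene's mean over 24 libraries (vertical axis). Shown are the genes that depart most (Rpl24, Rpl13, Rps29 and Rpl10) and Rps7 as one that departs little. Rpl15, Rps26 and Rps9 were chosen for their relative difference between the populations. Each point is a library, glioma to the left of surrounding within each stage, and lines are means of 4 libraries. Rps26 is relatively higher and Rps9 relatively lower in glioma cells at each stage on average, while Rps7 stays between -0.26 and 0.18.

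Stages were then compared within glioma cells. With all 12 glioma libraries, 0 of 79 genes were called between late and early symptomatic tumours, against 0.273% of all genes. The median log2 fold change of the 79 was 0.55, against 0.04 for all genes, and 78 were positive. An unadjusted p under 0.05 was found for 35 of the 79, against 19.7% of all genes. Between late symptomatic and asymptomatic tumours 0 were called, against 0.158% of all genes, with a median of 0.69 against 0.04 and all 79 positive. Here 59 of the 79 had an unadjusted p under 0.05, against 14.8% of all genes. DESeq2 called 0 and 2 of the 79 in these comparisons (2.24% of all genes higher in the second), which share the late libraries. Leaving out tumours 3108D and 3109D gave 0 calls and medians of 0.52 and 0.67. Leaving out any single tumour other than 3057E gave 0 calls, with medians of 0.37 to 0.60 against early and 0.47 to 0.72 against asymptomatic tumours. The fit without 3057E is described further because its glioma library was the lowest for 75 of the 79 genes. That choice rests on the values tested, so the calls without it describe the remaining 11 libraries and are not an independent test of a late-stage difference. Without 3057E, 73 of 79 were higher in late than in early tumours, against 8.58% of all genes, with a median of 0.81. Likewise 76 of 79 were higher in late than in asymptomatic tumours, against 7.19% of all genes, with a median of 0.93. With all 12 libraries and limma voom, which weights samples by how well they fit and so also uses the values tested, 56 of 79 were higher against early tumours (8.49% of all genes) and 74 of 79 against asymptomatic ones (9.91%).

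Rpl23a, at the mouth of the exit tunnel, was at 1152, 1085, 1028 and 259 CPM in late glioma cells of 3054A, 3054B, 3054C and 3057E, against 455, 556, 431 and 441 CPM in early ones and 476, 533, 369 and 446 CPM in asymptomatic ones. The first 3 late libraries were above all 8 of the others and 3057E was below all 8. Its log2 fold change of late over early was 0.90 ± 0.34 (edgeR, adjusted p = 0.191) with 3057E and 1.19 ± 0.16 (0.000614) without it. Here and below, calls and p values without 3057E follow a choice made from the values tested and are no independent tests of stage. Rpl7 was at 839, 1197, 1202 and 389 CPM in the same late libraries, against 469, 545, 486 and 547 CPM in early ones (3108C, 3108D, 3109D and 3145A). It had the smallest p of this comparison, at 0.82 ± 0.27 (edgeR, adjusted p = 0.143) with 3057E and 1.05 ± 0.15 (0.00106) without it. Rps16 was at 314, 309, 398 and 120 CPM in late libraries, against 157, 160, 118 and 152 CPM in asymptomatic ones. Its log2 fold change of late over asymptomatic was 0.96 ± 0.28 (edgeR, adjusted p = 0.149) with 3057E and 1.20 ± 0.16 (0.000965) without it.

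The stalk genes and Rps6 were among those called higher without 3057E. Late over asymptomatic, Rplp0, Rplp1 and Rplp2 were at 1.15 ± 0.20, 1.04 ± 0.15 and 1.20 ± 0.15 on the log2 scale (edgeR, adjusted p = 0.00327, 0.00118 and 0.000524). Rps6 was at 0.85 ± 0.16 (adjusted p = 0.00393), against 0.61 ± 0.27 (0.323) with all libraries. The members not called without 3057E were Rpl13, Rpl8, Rps15, Rps4x, Rps3a2 and Rps3a3 against early tumours, and Rps4x with both pseudogenes against asymptomatic ones. Rps4x was at 623, 655, 691 and 363 CPM in late glioma cells, against 515, 543, 436 and 705 CPM in early ones, which overlap, and at 0.23 ± 0.16 (edgeR, adjusted p = 0.334) without 3057E. When each gene was set against the summed 79, no member was called in either comparison, and the medians of all genes were -0.28 (late over early) and -0.39 (late over asymptomatic).

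**Figure D5:**
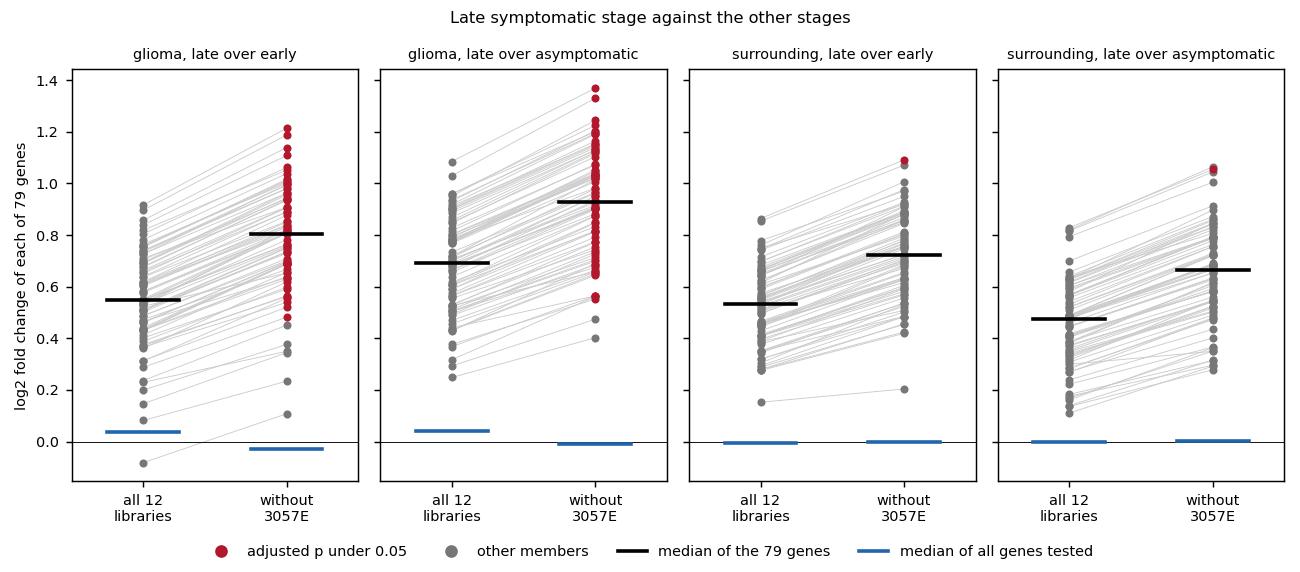
Log2 fold change (vertical axis) of each of the 79 genes for the late stage over the early or asymptomatic stage in glioma and in surrounding cells, with all 12 libraries of the population and without tumour 3057E; grey lines join a gene's values, black bars are medians of the 79 and blue bars medians of all genes tested. Red points (adjusted p under 0.05) number 73 and 76 in glioma cells without 3057E and 1 and 1 in surrounding cells.

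Other measures differed among the glioma libraries as well. Mki67, a gene of dividing cells, was at 1762, 867, 665 and 85.9 CPM in late glioma cells of 3054A, 3054B, 3054C and 3057E. Early ones stood at 275 to 338 CPM and asymptomatic ones at 328 to 913 CPM, a range that holds 3054B and 3054C. Myc was at 82.7, 114, 105 and 32.3 CPM in the same late libraries, against 34.7 to 44.1 CPM in early and 25.6 to 68.7 CPM in asymptomatic ones. Without 3057E, 6 of 7 microglia markers were lower in late than in asymptomatic glioma cells, with summed levels of 49.7 to 78.1 CPM in late and 155 to 476 CPM in asymptomatic ones. In the same comparison 3 of 5 astrocyte markers were lower (2 of 5 with all libraries), with summed levels over all 4 libraries of 402 to 1495 CPM in late and 1149 to 1816 CPM in asymptomatic ones. Of 4 neuron markers 3 were lower and 1 higher without 3057E, with sums of 69.1 to 213 CPM in late and 57.1 to 127 CPM in asymptomatic ones over all libraries, and of 3 endothelial markers tested 1 was higher. Markers of OPCs, mature oligodendrocytes and erythrocytes and genes induced by dissociation had no call, and the 4 T cell markers, all at 0 in late glioma cells, were not tested. Transcript length moved with the stage too. Among other coding genes, the median log2 fold change of late over asymptomatic glioma cells was 0.43 for those up to 750 bases long and -0.08 for those over 5000 bases, and the median length of the members was 878 bases. For the 27 members up to 750 bases the median was 0.78, and for the 8 between 1500 and 2500 bases it was 0.55, against 0.13 for other genes of that length. The parts of Mki67, Myc, RNA of other cell types and length in the result were not tested, and day and stage cannot be told apart.

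Between early symptomatic and asymptomatic glioma cells 0 of 79 were called, with 0.0% of all genes called, and 0 by DESeq2 or limma voom. An unadjusted p under 0.05 was found for 0 members, against 4.91% of all genes. The median log2 fold change was 0.12, and 0.04 (without 3108D) to 0.18 with single tumours left out. Rps3a3, the pseudogene copy, had the smallest p at 0.59 ± 0.29 (edgeR, adjusted p = 0.936), followed by Rpl36 of the large subunit at 0.45 ± 0.30 (0.94).

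In surrounding cells the late stage also had the higher medians. Late over early, 0 of 79 were called, against 1.48% of all genes, with a median log2 fold change of 0.53 against 0.00 for all genes and all 79 positive. Late over asymptomatic, 0 were called, with 0.0% of all genes called and a median of 0.48. In each of these comparisons 1 member had an unadjusted p under 0.05, DESeq2 called 0, and limma voom called 14 and 23 higher (17.7% and 29.1% of members), against 14.9% and 11.6% of all genes. These medians rested in part on single tumours. Without 3054C they were 0.23 late over early, with 3 of 79 negative, and 0.17 late over asymptomatic, with 14 negative. The late over early median was 0.35 without 3108D, and the late over asymptomatic median 0.84 without 3229B. Without 3057E, 1 was called higher against early tumours (9.18% of all genes) and 1 against asymptomatic ones (7.58%). Both times it was Rpl10, at 423, 720, 901 and 282 CPM in late surrounding cells of 3054A, 3054B, 3054C and 3057E, against 408, 216, 341 and 274 CPM in early ones and 267, 310, 245 and 470 CPM in asymptomatic ones. Its late over early log2 fold change was 0.86 ± 0.37 (edgeR, adjusted p = 0.271) with 3057E and 1.09 ± 0.33 (0.0373) without it. Rps9 followed at 0.85 ± 0.41 (adjusted p = 0.321), and Rpl6 at 0.70 ± 0.35 (0.342) late over asymptomatic. The summed microglia markers of the late surrounding libraries were 8061, 10038, 11130 and 1705 CPM in the order of those codes. Late over early, 3 of 4 T cell markers were higher with all libraries (summed 4.32 to 29.0 CPM in late and 0.88 to 1.56 CPM in early surrounding cells). Without 3057E, 4 of 4 erythrocyte markers, 4 of 7 microglia markers, 1 of 4 endothelial markers and 1 of 5 dissociation genes were higher too, while 4 of 6 OPC markers and 1 of 4 neuron markers were lower. Late over asymptomatic without 3057E, 4 of 6 OPC, 2 of 5 astrocyte and 1 of 4 neuron markers were lower, and 1 microglia marker, 1 endothelial marker and 1 dissociation gene were higher. The part of these in the result was not tested.

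Early over asymptomatic surrounding cells gave 0 calls, with 0.0% of all genes called, and 0 by DESeq2 or limma voom. An unadjusted p under 0.05 was found for 0 members, against 3.66% of all genes. Rpl22 was at -0.21 ± 0.26 and Rps15 at -0.30 ± 0.44 (edgeR, adjusted p = 1.0 for both). The value of Rps15 rests on the library of 3229B, at 719 CPM against 261 to 268 CPM in the other 3 asymptomatic surrounding libraries, and without that tumour it was 0.25.

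Whether the stage effects differed between the populations was tested as an interaction. In each of the 3 pairs of stages 0 of 79 were called, 0.0% of all genes were called, and DESeq2 and limma voom called 0. Members at unadjusted p under 0.05 numbered 0, against 6.2% (late over early), 8.43% (late over asymptomatic) and 1.54% (early over asymptomatic) of all genes. For late over asymptomatic, Rpl23a had the smallest p, with glioma cells ahead by 0.69 ± 0.50 (edgeR, adjusted p = 0.722), and Rps26 followed at 0.59 ± 0.47 (0.756). For late over early these were Rps3a3 at -0.65 ± 0.56 (adjusted p = 0.888) and Rpl23a at 0.54 ± 0.50 (0.897). For early over asymptomatic they were Rps3a3 at 0.76 ± 0.56 and Rps14 at 0.57 ± 0.58 (adjusted p = 1.0 for both). A late-stage difference called in glioma cells and not in surrounding cells is therefore not shown to differ between them.

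Genes of related lists were compared in the same fits. In glioma over surrounding cells, 24 of 78 mitochondrial ribosomal protein genes were higher and 0 lower, with a median of 0.24, against -0.31 for the cytoplasmic members. Among them Mrps22 was at 0.75 ± 0.15 (edgeR, adjusted p = 0.00026) and Mrps5 at 0.57 ± 0.10 (8.3e-05). Of 26 ribosome assembly genes 9 were higher and 1 lower, among them Nop58, a nucleolar protein that guides methylation of ribosomal RNA, at 0.62 ± 0.14 (adjusted p = 0.00077). The other genes with TOP messages, mostly translation factors, had 2 of 18 higher and 1 lower. These were Nap1l1 at 0.69 ± 0.15, Hnrnpa1 at 0.51 ± 0.15 and the polyA-binding protein Pabpc1 at -0.64 ± 0.17 (adjusted p = 0.00065, 0.0077 and 0.0048). Of 17 mTORC1 and TOP regulators 5 were higher and 3 lower, among them the S6 kinase Rps6kb1 at 0.63 ± 0.11 (9.1e-05) and the mTOR inhibitor Deptor at -3.08 ± 0.29 (2.3e-08). These counts stand beside 22.0% of all genes higher and 24.2% lower.

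Paralogs and fusion genes are outside the symbol rule though some encode ribosomal proteins. Of 12 such genes 9 were tested and 1 was lower in glioma cells. This was Fau, which encodes the small-subunit protein S30 fused to a ubiquitin-like protein. It averaged 112 ± 10.2 CPM in asymptomatic, 134 ± 23 CPM in early and 216 ± 91.5 CPM in late glioma cells, against 294 ± 141, 262 ± 125 and 522 ± 292 CPM in surrounding cells of those stages (SD, n = 4 each). Its log2 fold change was -1.21 ± 0.23 (edgeR, adjusted p = 0.00023), beyond that of any of the 79 members. The muscle and testis paralogs Rpl3l, Rpl10l and Rpl39l had 7, 0 and 55 counts over all libraries and were not tested. Of 319 processed copies 151 were tested and 5 were lower. Their reads can be shared with the coding genes, and expected counts divide them by estimate, so Rps3a1, Rps3a2, Rps3a3 and such copies are uncertain one by one.

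In late over asymptomatic glioma cells without 3057E, 12 of 18 other TOP genes were higher, with a median of 0.60, among them Eef1b2, an exchange factor of elongation, at 1.13 ± 0.16 (edgeR, adjusted p = 0.00099) and Tpt1, a small TOP-message protein, at 1.25 ± 0.15 (0.00044). Of the 9 paralogs and fusions tested 5 were higher, of 78 mitochondrial ribosomal protein genes 19, of 26 assembly genes 4 and of 17 regulators 1, with 2 lower. These counts stand beside 7.19% of all genes higher and 7.5% lower, and the regulators' median was -0.15. With all libraries none of these lists had a called member.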

How the data were processed

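The 24 libraries were prepared with a total RNA kit applied to polyA RNA, per the labels' protocols. The submitters' processing notes name STAR 2.7.5c, RSEM 1.3.1 and the build GRCm38, and the authors deposited expected counts per gene. Annotation release, strand setting and use of molecular identifiers were not given in the sources used here, so overlapping and antisense genes are uncertain. The deposited expected counts, 13.2 to 16.5% of them not whole in a library, were rounded to whole numbers. The table had 0 columns of other samples. Coordinates are from GENCODE M21 on GRCm38, which holds 98.6% of the identifiers.

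The model was edgeR 4.0.16 under R 4.3.3 (TMM scaling, filterByExpr with a minimum count of 10, robust quasi-likelihood test), with Benjamini-Hochberg adjustment across every gene in the fit and a threshold of 0.05. Standard errors come from the F statistic. Each stage comparison used a single population's 12 libraries, and populations and interactions used all 24. CPM use TMM over 24 libraries. The fits were tested on simulated data. Alternatives were DESeq2 1.42.0, limma voom (3.58.1) with sample weights, DESeq2 size factors, TMM without the members, no count filter, each tumour left out, 3108D and 3109D left out, all libraries in 1 fit, the tumour code as a block and, chosen after the data were seen, scaling to the summed members. Libraries within a group differed beyond sampling noise (chi-square over its degrees of freedom at least 22.2).

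Codes pair the libraries of a tumour, per the labels. Deviations from group means of the same code correlated at 0.080 to 0.456 over genes, except in 3108D (0.039) and 3109D (0.013), each of which correlated best with the other code (0.425 and 0.316); 3057E correlated best with 3054A (0.149).

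The members and gene lists were chosen with earlier results of these data known. Members named are 15 with known roles, up to 4 called per direction in each comparison with the smallest p (or 2 where none was called), and the 4 most and 4 least variable relative to the members' mean. Rpl15, Rps26 and others just past or near a threshold, and genes of related lists, were named after their values were seen. Results for 2 members are not reported here one by one.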

Additional observations from a re-analysis of the deposited data

Results flagged for a closer look

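For the named members and the share of counts, the highest and the lowest of the 4 libraries in each of 198 groups of values were examined for a gap from the rest (Dixon's ratio above its 95% critical value), and chance alone marks about 1 in 20 groups. Of these, 13 were marked, not far above that share. Since the members move together, marks of a single library are not separate results. In 10 of the 13 it was the surrounding library of tumour 3229B that stood above the other 3 asymptomatic ones. Its levels were 466 CPM for Rpl11, 504 CPM for Rpl12, 192 CPM for Rpl36, 836 CPM for Rpl41 and 699 CPM for Rpl5. They were 472 CPM for Rps14, 719 CPM for Rps15, 456 CPM for Rps29, 790 CPM for Rps4x and 570 CPM for Rps7. The same library had the highest mitochondrial share of all 24 and the lowest Malat1, and the part of these in its levels was not tested.

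The other 3 were the glioma library of tumour 3057E, far below the other 3 late ones. It stood at 259 CPM for Rpl23a against 1028 to 1152 CPM, at 3.64 CPM for Rps3a3 against 7.78 to 8.19 CPM, and at 189 CPM for Rps6 against 508 to 570 CPM.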

How the results depend on the processing

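The count of members lower in glioma than in surrounding cells, 7, was 15 with DESeq2 size factors (25.7% of all genes), 18 with DESeq2 (26.9%) and 18 in the fit with the tumour code as a replicate block (25.8%). It was 28, or 35.4% of members, in that block with 3108D and 3109D exchanged, against 26.5% of all genes. Scaled to the summed members 3 were called (2 higher and 1 lower), and with single tumours left out 2 to 24. In asymptomatic tumours the exchanged block gave 2 calls (14.1% of all genes), and leaving out tumours gave 0 to 1. In late tumours, in place of 1 call, DESeq2, DESeq2 size factors, limma voom and the replicate block gave 2 each (21.5 to 23.7% of all genes), the exchanged block 3 (22.6%), scaling to the summed members 0, and leaving out tumours 0 to 2. The block changed no call in the other comparisons. Stage comparisons share no codes between groups, so no paired analysis was possible there.

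For late over early glioma cells limma voom called 56 and leaving out tumours gave 0 to 73. For late over asymptomatic glioma cells limma voom called 74, DESeq2 2, and leaving out tumours gave 0 to 76. In surrounding cells limma voom called 14 (late over early) and 23 (late over asymptomatic), and leaving out tumours gave 0 to 1 in each. The remaining comparisons gave 0 calls in every alternative. Rps15 in early over asymptomatic surrounding cells was -0.30 and became 0.25 without 3229B, within -0.57 to 0.25 over single tumours left out. The causes of these shifts were not tested. With 4 libraries per group and 1 of them apart, the late-stage medians of 0.55 and 0.69 in glioma cells came with 0 calls, which does not show that the levels were alike. Sex was not a term of the fits.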
